A study of Mus musculus with 20 samples.

Results

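Purkinje cells are the output neurons of the cerebellar cortex. The genes described here act in the signalling from their metabotropic glutamate receptors to calcium release inside the cell, some of them by limiting or ending it. The 7 genes *Gnaq*, *Plcb4*, *Itpr1*, *Car8*, *Homer3*, *Inpp5a* and *Itpka* were taken by symbol from the 29200 Ensembl gene IDs of the count table. The rule names the genes and uses no threshold on their values, but they were proposed with earlier results of these data known. All 7 were among the 12153 genes tested, those with a mean of at least 50 counts.

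In this pathway, glutamate released by parallel fibres activates metabotropic receptors, which act through the G protein Gq on phospholipase C beta. The enzyme splits a membrane lipid into diacylglycerol and inositol 1,4,5-trisphosphate (IP3), and IP3 opens a calcium channel of the endoplasmic reticulum, the IP3 receptor. Purkinje cells hold unusually large amounts of this receptor, and loss of pathway genes causes ataxia in mice and humans.

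Cerebellar RNA of 20 C57BL6/N mice was sequenced, 5 in each of the groups formed by genotype (WT/WT or 304Q/304Q) and age (2 or 12 months). The study states that only males were used for sequencing. 304Q/304Q mice carry a repeat expansion in both alleles of the endogenous *Atxn3* gene, the gene of spinocerebellar ataxia type 3 (SCA3), and come from 1 founder line made with zinc-finger nucleases. The expansion is under the gene's own control, so that no cell type was selected by a promoter. The WT/WT mice were described as littermates. All cerebella were kept in RNAlater, and the whole tissue was used. The labels name ataxin-2 for the WT/WT alleles and a plain CAG repeat for the knock-in, whereas the study describes *Atxn3* and an interrupted CAACAG repeat. Counts per gene do not read the repeat itself. *Atxn3* differed by -0.54 (log2 fold change, adjusted p = 0.0916) between the genotypes at 2 months and by -0.13 (adjusted p = 0.51) at 12 months.

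Between 11385380 and 27636687 reads per library were counted on genes. The defining genes of Purkinje cells (*Pcp2*, *Calb1*) and of granule cells (*Gabra6*, *Cbln3*) were high in every library, with at least 3358 reads of *Pcp2* and 22257 of *Cbln3*. Of 7 forebrain genes, *Neurod6* alone reached a mean of 50 counts, and of 7 hindbrain genes none did. Choroid plexus genes varied widely between mice, from 174 to 29821 summed normalized counts, and no gene of that list passed the test in either genotype comparison. Library composition also differed in base content. The slope of a library's deviation from the mean against transcript GC content, in log2 units per 10 GC points, lay between 0.129 and 0.203 in 4 of the 5 WT/WT libraries of 12 months and was -0.0755 in WT/WT mouse 1. It lay between -0.0714 and 0.0406 in the 304Q/304Q libraries of 12 months, between -0.188 and 0.0741 in WT/WT mice of 2 months and between -0.137 and 0.0396 in 304Q/304Q mice of 2 months. WT/WT mouse 1 of 12 months thus stood apart from its group, and WT/WT mouse 1 of 2 months had the lowest slope of all, so that results are also given without both.

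The stretches of 250 bases before the RefSeq transcription start (GRCm38.p6) are shown for *Itpka* and *Inpp5a*, whose values at 12 months did not overlap between the genotypes, and for *Gnaq*, which alone was not lower. They lie on the plus strand at chr2:119742087-119742336 for *Itpka*, at chr7:139388859-139389108 for *Inpp5a* and at chr19:16132434-16132683 for *Gnaq*. *Homer3*, whose values at 12 months did not overlap either, is not shown, and its stretch had a GC content of 68.0%. Capitals mark the GC box GGGCGG on either strand, so that CCGCCC is the same motif.
Itpka: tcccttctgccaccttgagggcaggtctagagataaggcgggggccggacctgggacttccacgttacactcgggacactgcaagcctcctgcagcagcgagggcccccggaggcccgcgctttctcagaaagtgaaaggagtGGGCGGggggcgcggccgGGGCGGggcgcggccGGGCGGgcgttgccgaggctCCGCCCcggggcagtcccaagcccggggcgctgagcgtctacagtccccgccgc
Inpp5a: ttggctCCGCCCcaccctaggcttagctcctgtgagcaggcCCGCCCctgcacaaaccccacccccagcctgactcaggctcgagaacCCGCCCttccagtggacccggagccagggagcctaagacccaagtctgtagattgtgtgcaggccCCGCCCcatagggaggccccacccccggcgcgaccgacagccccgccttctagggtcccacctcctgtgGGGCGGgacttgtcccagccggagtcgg
Gnaq: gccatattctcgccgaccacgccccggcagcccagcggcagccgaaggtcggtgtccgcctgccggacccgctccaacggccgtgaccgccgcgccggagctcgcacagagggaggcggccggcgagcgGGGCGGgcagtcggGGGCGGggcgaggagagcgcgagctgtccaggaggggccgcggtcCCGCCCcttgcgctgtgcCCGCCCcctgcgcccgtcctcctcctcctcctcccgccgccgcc
All 3 stretches hold GC boxes, also that of *Gnaq*, and their GC content was 72.8% for *Itpka*, 69.2% for *Inpp5a* and 79.2% for *Gnaq* against a median of 52.4% over 32851 promoters. Sequences were found for 5 of the 7 genes, with 7 start sites, since *Plcb4* and *Inpp5a* have 2 each. The stretch before the other *Inpp5a* start, not shown, had a GC content of 49.6% and no GC box. A GC box was present before 5 of these 7 starts and in 32.7% of all promoters of this length. The site AGGTCA of ROR receptors was present on the reverse strand before the *Homer3* start alone and in 14.0% of all promoters. The E-box CACGTG, the TATA box TATAAA and the cyclic AMP response element TGACGTCA were searched on both strands and were in none of the 7 windows, against 6.02%, 12.4% and 1.55% of all promoters. No overlapping motif of another kind was searched. These matches are letters in a window and were not tested for binding.

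Levels differed widely between the 7 genes when set per length. *Car8* encodes a carbonic anhydrase-related protein that binds the IP3 receptor and lowers its affinity for IP3. It had the highest level, with a mean of 327 reads scaled to exon length and library size (RPKM) over the 20 libraries. *Itpr1*, the IP3 receptor type of Purkinje cells, followed at 157 RPKM. *Inpp5a*, which removes a phosphate from IP3, and *Homer3*, a postsynaptic scaffold that ties metabotropic receptors to the IP3 receptor, had 81.5 and 63.7 RPKM. *Plcb4*, the phospholipase C beta of most Purkinje cells, had 41.5, *Gnaq*, the alpha subunit of Gq, 30.1, and *Itpka*, the kinase that turns IP3 into inositol tetrakisphosphate, 24.6 RPKM. The ranges of *Inpp5a* (66.2 to 92.5) and *Homer3* (49.2 to 88.3) overlapped between libraries, as did those of *Plcb4* (36.2 to 44.9) and *Gnaq* (23.7 to 37.6), and of *Gnaq* and *Itpka* (18.4 to 35.8). Those of *Car8* (243 to 403) and *Itpr1* (117 to 196) overlapped with no other gene of the 7. *Gnaq* and *Itpka* are also expressed outside Purkinje cells, so whole-tissue levels are not levels per Purkinje cell.

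At 2 months, none of the 7 genes differed between the genotypes. 6 of them were lower and 1 was higher in 304Q/304Q mice, and no adjusted p was below 0.883 (quasi-likelihood test of edgeR, adjusted by Benjamini and Hochberg). Over all genes, 0.0494% passed the adjusted threshold of 0.05 at this age, and 5.55% had an unadjusted p under 0.05. None of the 7 was among the latter, the lowest being *Itpr1* (unadjusted p = 0.0639), and DESeq2 with and without surrogate variables called 0 by adjusted p. The median log2 fold change of the 7 was -0.09, against -0.0017 over all genes. The widest interval was that of *Itpka* (log2 fold change -0.12, 95% interval -0.36 to 0.12) and the narrowest that of *Inpp5a* (-0.07, interval -0.15 to 0.02), so that a change of -22.1% for *Itpka* and of -9.62% for *Inpp5a* lies at the lower end of the intervals.

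At 12 months, 5 of the 7 genes fell in 304Q/304Q mice relative to WT/WT mice, against 7.3% of all genes lower and 12.5% in either direction. *Homer3* and *Itpka* changed most and were the 2 DEGs, a size of at least 0.5 on the log2 scale that 3.09% of all genes reached, followed by *Inpp5a*, *Itpr1* and *Plcb4*. *Car8* missed the threshold and *Gnaq* was not lower. Since the whole cerebellum was sequenced, fewer Purkinje cells and less RNA per Purkinje cell cannot be told apart in any of these differences. In 3 of the 7 genes no 304Q/304Q mouse reached the lowest WT/WT mouse, against 5.43% of all genes lower without overlap.

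**Figure D1:**
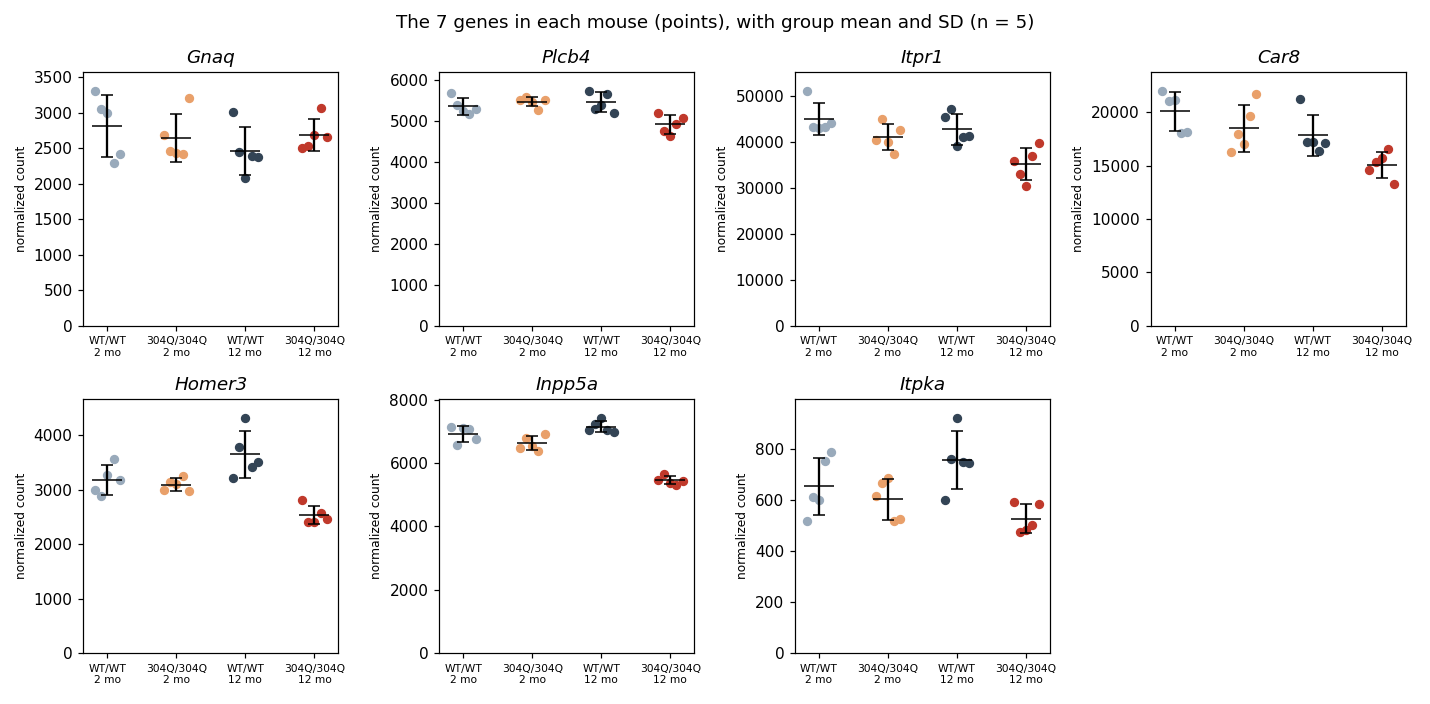
Normalized counts of each gene in every mouse (points, y axis from 0), with group means and SD as bars (n = 5). At 12 months the 304Q/304Q points of *Homer3*, *Inpp5a* and *Itpka* lie below every WT/WT point, while *Gnaq* overlaps throughout.

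Of the receptor scaffold, *Homer3* (ENSMUSG00000003573, chromosome 8, 70282827 to 70294361, plus strand) showed 3221, 3774, 4315, 3417 and 3500 normalized counts in WT/WT mice 1 to 5 of 12 months. The 304Q/304Q mice of that age had 2814, 2407, 2413, 2579 and 2463. Every 304Q/304Q mouse was below every WT/WT mouse, and WT/WT mouse 3, the library with the highest GC slope (0.203), was the highest of all. The means were 3645 ± 424 and 2535 ± 171 (SD, n = 5), and the level fell by 30.4% (log2 fold change -0.52, SE 0.07, adjusted p = 1.2e-05 with edgeR). Without WT/WT mouse 3 of 12 months the log2 fold change was -0.46, below the size of 0.5 the study used for a differentially expressed gene (DEG), and with surrogate variables in DESeq2 it was -0.49, also below it. *Homer3* was a DEG under 8 of 9 alternative settings of tool, filter, scaling or model and passed the adjusted threshold under all 9. At 2 months the WT/WT mice had 2986, 2876, 3269, 3566 and 3184 and the 304Q/304Q mice 2993, 3143, 3096, 3256 and 2969 normalized counts, which overlap. Exons of *Homer3* overlap those of *Ddx49* on the other strand, and whether strand was used in counting is not given in the sources used here.

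Of the enzymes that end the IP3 signal, *Inpp5a* (ENSMUSG00000025477, chromosome 7, 139389109 to 139579652, plus strand) had the clearest separation. WT/WT mice of 12 months had 7051, 7231, 7427, 7055 and 6991 normalized counts. The 304Q/304Q mice had 5480, 5648, 5383, 5318 and 5439. The groups were well apart, with the highest 304Q/304Q mouse far under the lowest WT/WT mouse. The means of 7151 ± 179 and 5454 ± 125 (SD, n = 5) differ by -23.7% (log2 fold change -0.39, SE 0.04, adjusted p = 2.39e-07 with edgeR). At 2 months WT/WT mice averaged 6930 ± 250 and 304Q/304Q mice 6623 ± 224, with overlap. Exons of the gene overlap *Nkx6-2* on the other strand.

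*Itpka* (ENSMUSG00000027296, chromosome 2, 119742337 to 119751263, plus strand) had the fewest counts of the 7. At 12 months, WT/WT mice had 603, 762, 924, 750 and 747 normalized counts. The 304Q/304Q mice of that age had 592, 475, 483, 504 and 586. The groups did not overlap, but the lowest WT/WT and the highest 304Q/304Q mouse were close. The means were 757 ± 114 and 528 ± 56.8 (SD, n = 5), and the level fell by 30.2% (log2 fold change -0.52, SE 0.12, adjusted p = 0.00426 with edgeR). At 2 months, WT/WT mice had 518, 613, 600, 753 and 790 and 304Q/304Q mice 619, 668, 689, 517 and 525, in overlapping ranges. Without WT/WT mouse 3, 304Q/304Q mouse 2 or 304Q/304Q mouse 3 of 12 months the log2 fold change was -0.44, -0.48 and -0.49, each below the DEG size of 0.5. With surrogate variables *Itpka* was at -0.31 in DESeq2 (adjusted p = 0.00619) and at -0.32 in edgeR (adjusted p = 0.0104), so that it was a DEG under 7 of the 9 alternative settings and passed the adjusted threshold under all 9.

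*Itpr1* (ENSMUSG00000030102, chromosome 6, 108213096 to 108551109, plus strand) ranked 9 among all genes tested by its mean log2 level. WT/WT mice of 12 months had 45285, 47086, 39032, 40930 and 41254 normalized counts, and 304Q/304Q mice 35759, 33080, 30460, 36882 and 39628. The 304Q/304Q mouse 5 lay above the lowest WT/WT mouse, and the other 304Q/304Q mice were below all WT/WT mice. The level fell by 17.7% (log2 fold change -0.28, SE 0.07, adjusted p = 0.00548 with edgeR). At 2 months the means were 44870 ± 3501 and 41070 ± 2861, and WT/WT mouse 1 (51090) was well above the others, at 42880 to 44024. Exons of *Itpr1* overlap *Gm44040* and *Gm44101* on the other strand.

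*Plcb4* (ENSMUSG00000039943, chromosome 2, 135659011 to 136014593, plus strand) had the smallest change that passed. At 12 months, WT/WT mice had 5729, 5289, 5386, 5659 and 5182 normalized counts and 304Q/304Q mice 5195, 4751, 4620, 4922 and 5063, where 304Q/304Q mouse 1 overlapped the WT/WT range. It fell by 9.88% (log2 fold change -0.15, SE 0.04, adjusted p = 0.0247 with edgeR). The call was lost without WT/WT mouse 4 of 12 months (adjusted p = 0.0625), 304Q/304Q mouse 2 (0.0674) or 304Q/304Q mouse 3 (0.0711). *Plcb4* passed under only 5 of the 9 alternative settings. It missed the threshold with surrogate variables (adjusted p = 0.0691 in DESeq2 and 0.0867 in edgeR), with only the groups compared in the fit (0.0767) and with no filter on low counts (0.108).

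*Car8* (ENSMUSG00000041261, chromosome 4, 8143362 to 8239041, minus strand) had 21304, 17208, 17202, 16394 and 17098 normalized counts in the WT/WT mice of 12 months, and the 304Q/304Q mice had 14594, 15400, 15685, 16561 and 13329. WT/WT mouse 1 was far above its group, and 304Q/304Q mouse 4 lay above the lowest WT/WT mouse. The log2 fold change was -0.24 (SE 0.08) with an adjusted p of 0.0501, so that the threshold was missed narrowly. The adjusted p was 0.0382 in DESeq2 and 2.47e-07 with surrogate variables in edgeR, where the log2 fold change was -0.38. It passed under 6 of the 9 alternative settings, with adjusted p up to 0.0817 in the other 3. When 1 library was left out, the log2 fold change of *Car8* lay between -0.27 and -0.17 and 7 of the 20 fits passed, those without WT/WT mouse 1, 4 or 5 or 304Q/304Q mouse 1 or 5 of 2 months, or without mouse 4 of either genotype of 12 months.

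*Gnaq* (ENSMUSG00000024639, chromosome 19, 16132831 to 16387463, plus strand) had 3001, 2440, 2082, 2391 and 2368 normalized counts in the WT/WT mice of 12 months, and the 304Q/304Q mice had 2495, 2528, 2691, 3065 and 2660. The ranges overlapped, with WT/WT mouse 1 among the highest. The log2 fold change was 0.13 (95% interval -0.08 to 0.34, adjusted p = 0.433 with edgeR), so that a change below -5.33% lies outside the interval.

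**Figure D2:**
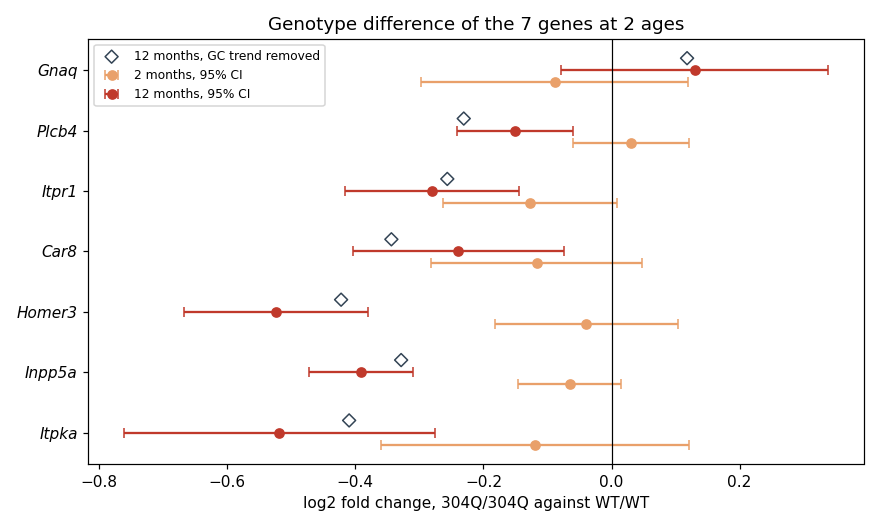
Log2 fold change of 304Q/304Q against WT/WT (x axis) for the 7 genes (y axis) at 2 and 12 months with 95% intervals, and at 12 months with the GC trend of each library removed (diamonds). At 12 months 6 of the 7 lie below 0, and removing the GC trend brings *Homer3* to -0.42 and *Itpka* to -0.41 and takes *Car8* to -0.34.

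The GC content of the longest transcripts was 61.1% for *Itpka*, 60.2% for *Homer3*, 53.8% for *Inpp5a*, 49.5% for *Itpr1*, 46.9% for *Gnaq*, 43.5% for *Plcb4* and 42.3% for *Car8*. *Itpka* and *Homer3* were thus above 97.3% and 95.8% of the genes tested, and *Car8* above 13.5%. The slope was computed from these same counts against GC content. Genes of very high or low GC content therefore follow it in part by construction. How many of all genes follow the slope was not counted, so the relations below are given as a description. After group means were removed, the level of *Itpka* rose with the GC slope of the library (r = 0.90, permutation p = 1e-05, the smallest the 100000 permutations within groups can give; adjusted p = 8e-05 over 8 relations; rho = 0.88, p = 9e-05, adjusted p = 0.00072). *Car8* went the opposite way (r = -0.89, permutation p = 4e-05, adjusted p = 0.00016, rho = -0.85, p = 0.0002, adjusted p = 0.0008), and so did *Gnaq* (r = -0.91, permutation p = 0.00019, adjusted p = 0.000507, rho = -0.79, p = 0.00151, adjusted p = 0.00403). Without the 2 libraries farthest in slope r was 0.86, -0.84 and -0.86. *Homer3* rose with the slope more loosely (r = 0.61, permutation p = 0.0217, adjusted p = 0.0434, rho = 0.52, p = 0.0441), with r = 0.48 without those 2, and its rank relation missed the threshold once adjusted (adjusted p = 0.0882). For *Inpp5a* r was -0.00 (permutation p = 0.991, rho = 0.01, p = 0.97). *Plcb4* had r = -0.36 (permutation p = 0.17, rho = -0.31, p = 0.226) and *Itpr1* r = -0.23 (permutation p = 0.35, rho = -0.07, p = 0.776).

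**Figure D3:**
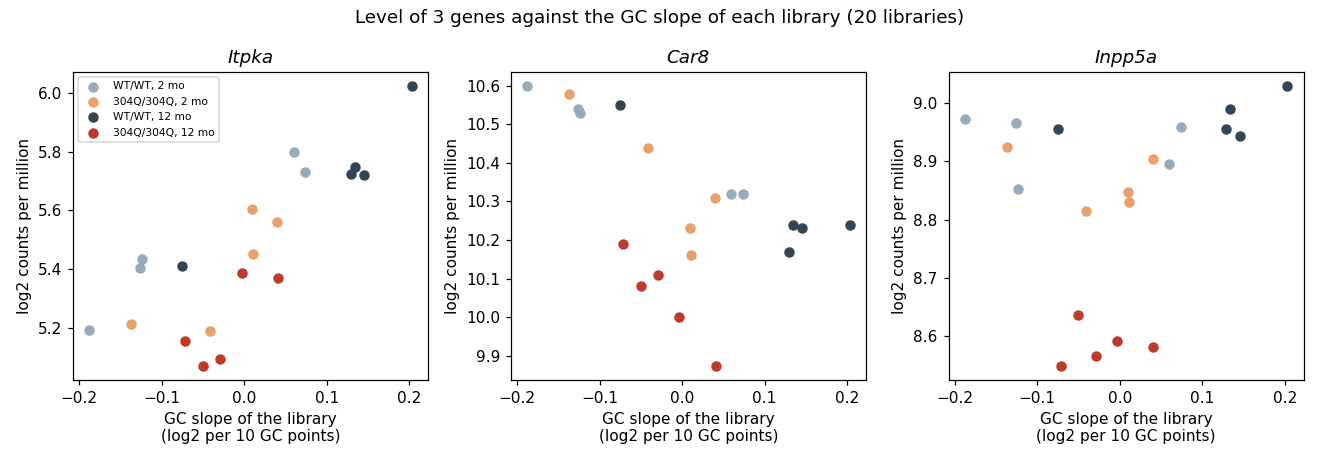
Log2 CPM of *Itpka*, *Car8* and *Inpp5a* (y axes) against the GC slope of each library (x axis, log2 per 10 GC points), 20 libraries coloured by group. *Itpka* rises and *Car8* falls along the axis. For *Inpp5a* the 304Q/304Q libraries of 12 months lie lowest, at slopes between -0.0714 and 0.0406. Most WT/WT libraries of 12 months have higher slopes, so that slope and genotype cannot be fully told apart at that age.

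Since the slopes of the 12 month groups differed, the comparison was repeated with the GC trend of each library removed, an alternative chosen after seeing the data. Then 6 of the 7 genes passed at 12 months. *Homer3* was at -0.42 and *Itpka* at -0.41 on the log2 scale, both under the DEG size of 0.5. *Inpp5a* was at -0.33, *Itpr1* at -0.26, *Plcb4* at -0.23 and *Car8* at -0.34 (adjusted p = 5.69e-05 with edgeR), and *Gnaq* at 0.12. All 5 calls stood, and *Car8* joined them. Without WT/WT mouse 1 of both ages, also chosen after seeing the data, 5 of the 7 passed. The shares of all genes passing under these alternatives are not given here, and the 12.5% above belongs to the main fit.

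Between the ages, 5 of the 7 genes passed in 304Q/304Q mice and none in WT/WT mice, and the test of the difference between the genotypes is the interaction. In WT/WT mice none of the 7 passed between 2 and 12 months, against 11.5% of all genes, and *Homer3* had the lowest adjusted p (log2 fold change 0.20, adjusted p = 0.062). By the unadjusted p of edgeR, *Homer3* (0.00838) and *Car8* (0.0418) were under 0.05, 2 of the 7 against 27.5% of all genes, and DESeq2 also called 0. The count rose to 3 without WT/WT mouse 1 of 12 months (*Gnaq* -0.28, *Car8* -0.24 and *Homer3* 0.24) and to 1 without WT/WT mouse 4 of 2 months, where *Homer3* passed. In 304Q/304Q mice, 5 of the 7 fell between 2 and 12 months, against 4.18% of all genes lower. The log2 fold changes were -0.29 for *Homer3*, -0.28 for *Inpp5a*, -0.29 for *Car8*, -0.22 for *Itpr1* and -0.15 for *Plcb4*. *Homer3*, *Inpp5a* and *Plcb4* did not overlap between the ages, against 4.2% of all genes lower without overlap. *Itpka* was at -0.19 (adjusted p = 0.41) and *Gnaq* at 0.02. When 1 library was left out, between 2 and 5 of the 7 passed. *Homer3* and *Inpp5a* passed in all 20 such fits, whereas *Itpr1* and *Plcb4* each missed the threshold in 7 of them and *Car8* in 4. *Plcb4* also missed it under 2 of the 9 alternative settings, with no filter on low counts (adjusted p = 0.108) and with only the groups compared in the fit (0.052), while the other 4 genes passed under all 9. The 304Q/304Q mice of 12 months are shared with the genotype comparison, so both rest on the same libraries.

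The interaction tests whether the genotype difference itself changed between the ages. It passed for *Homer3* (log2 -0.48, SE 0.10, adjusted p = 0.00705 with edgeR) and *Inpp5a* (-0.33, SE 0.06, adjusted p = 0.00192), 2 of the 7 against 1.31% of all genes in that direction. *Itpka* was at -0.40 (adjusted p = 0.24), *Plcb4* at -0.18 (0.144), *Itpr1* at -0.15 (0.427), *Car8* at -0.12 (0.618) and *Gnaq* at 0.22 (0.46). These other 5 were not shown to differ between the ages. With the GC trend removed *Homer3* was at -0.35 (adjusted p = 0.0223), *Inpp5a* at -0.25 (0.031) and *Plcb4* at -0.28 (0.0116), and *Car8* passed with surrogate variables in edgeR (-0.30, adjusted p = 0.00176).

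Of 85 other tested genes of the pathway, 25 passed at 12 months, 21 lower and 4 higher, against 7.3% of all genes lower and 5.23% higher. None passed at 2 months with edgeR, and 1 did so with surrogate variables in either tool. The median log2 fold change of the 85 at 12 months was -0.05, against -0.28 for the 7 genes and -0.0039 over all genes. The lists were chosen with earlier results of these data known.

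**Figure D4:**
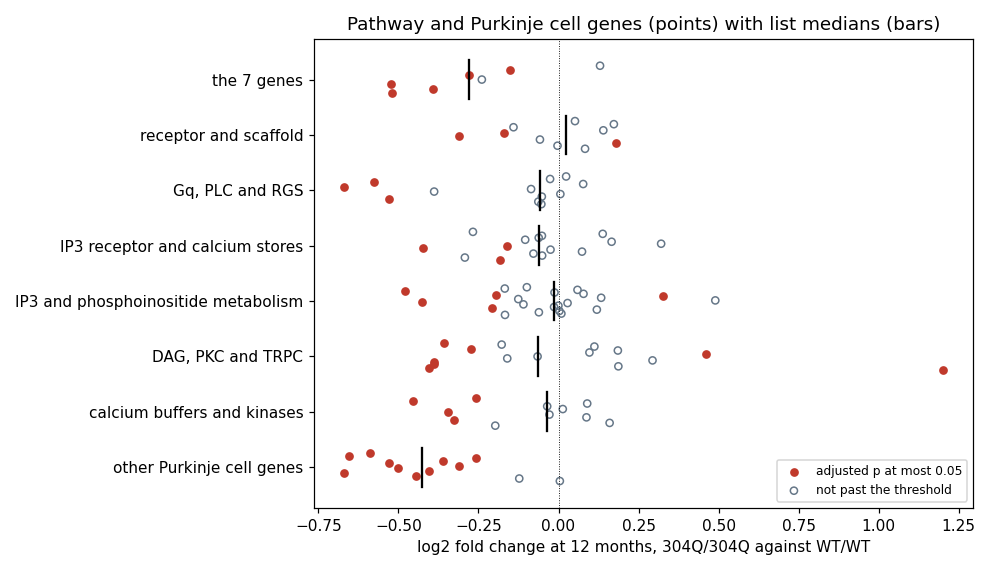
Log2 fold change at 12 months (x axis) of the 7 genes, the genes of 6 pathway lists and 12 further Purkinje cell genes (y axis), 1 point a gene, filled where the adjusted p was at most 0.05, with list medians as bars. The median of the 7 genes lies at -0.28 and that of the Purkinje cell genes at -0.42, and *Marcks* stands alone at 1.20.

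Among the scaffolds, *Homer1*, a relative of *Homer3*, did not pass (log2 fold change -0.14, adjusted p = 0.765). Of the 10 receptor and scaffold genes, *Shank2* (-0.31) and *Shank1* (-0.17), postsynaptic scaffolds that bind Homer proteins, fell, and *Ncdn*, which encodes neurochondrin, rose (0.18). Among the 12 genes of Gq, phospholipase C and their regulators 3 fell and none rose. These were *Gng13*, a G protein gamma subunit (-0.67), *Plcb3*, a further phospholipase C beta (-0.58), and *Rgs8*, a regulator of G protein signalling (-0.53). *Gna11* (0.02, adjusted p = 0.801), the close relative of *Gnaq*, and *Plcb1* (-0.03, adjusted p = 0.891) did not pass. All 3 that fell also passed the interaction, with log2 values of -0.59, -0.56 and -0.49.

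Of the 15 genes of the IP3 receptor and calcium stores 3 fell, all of them calcium pumps. *Atp2a3*, a pump of the endoplasmic reticulum, was at -0.42 (adjusted p of the interaction 0.000344), *Atp2b2* of the plasma membrane at -0.18 and *Atp2a2* at -0.16. Of the 22 genes of IP3 and phosphoinositide metabolism 4 fell and 1 rose. *Inpp5j*, another inositol phosphatase, was at -0.48, *Isyna1*, which makes inositol, at -0.43 and *Inpp4a* at -0.20, while *Inpp4b* was at 0.33. *Itpkb*, the relative of *Itpka*, did not pass (-0.10, adjusted p = 0.314).

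Of the 15 genes of the diacylglycerol branch 5 fell and 2 rose. *Dgkz*, a kinase that removes diacylglycerol, fell by 0.39 on the log2 scale, and *Dagla*, which turns diacylglycerol into an endocannabinoid, by 0.39. Both passed the interaction, with *Dgkz* at -0.38 and *Dagla* at -0.36. *Marcks*, a protein kinase C substrate, rose by 1.20. Of the 11 calcium buffers and calcium-dependent kinases 4 fell, *Pvalb* (-0.45), *Camk2a* (-0.34), *Camkk2* (-0.33) and *Calb1* (-0.26), and none rose.

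Of 12 further Purkinje cell genes that are no members, 10 fell at 12 months, against 7.3% of all genes lower. *Rgs8*, *Gng13* and *Ppp1r17* (-0.36) were first by adjusted p, and none of the 12 passed at 2 months. 4 of the 12, among them *Rgs8*, *Gng13* and *Calb1*, are also on the pathway lists. Their summed normalized counts lay between 54752 and 60283 in WT/WT and between 41669 and 44997 in 304Q/304Q mice of 12 months, and none of their genes was at 0 in all libraries. The summed counts of the 7 genes themselves lay between 76368 and 86193 in WT/WT and between 61734 and 69831 in 304Q/304Q mice. Both sums were separate between the genotypes at that age. Of the 12 granule cell genes 1, *Calb2*, passed (0.53), against 12.5% of all genes, and their sums overlapped, at 105512 to 112726 and 105823 to 117043.

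Some markers of other cells also passed at 12 months, when 7.3% of all genes passed lower and 5.23% higher. In lists this short, 1 passing gene is not read as a result about the cell type. Of 9 oligodendrocyte genes 5 fell, led by *Mobp* (-0.80) and *Mal* (-0.61), with sums of 74332 to 84676 in WT/WT and 48764 to 67313 in 304Q/304Q mice. Of 8 Bergmann glia and astrocyte genes *Gdf10* (-0.66) and *Aldh1l1* (-0.52) fell, with sums of 44928 to 46642 and 41560 to 43802. Of 8 interneuron genes *Grm2* fell (-0.52), with sums of 6500 to 7172 and 5828 to 6427, of 7 microglial genes *C1qa* rose (0.33), with sums of 2205 to 2615 and 2256 to 2941, and of 5 endothelial genes *Ly6c1* fell (-0.27), with sums of 2700 to 3022 and 2449 to 2832. The part of these cells in the values of the 7 genes was not tested.

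The 7 genes were next set against the Purkinje cell genes, as the log2 CPM of a gene minus the mean log2 CPM of the 12 genes, a comparison added after seeing the data. The mean of the 12 was itself 0.40 log2 units lower in 304Q/304Q mice of 12 months. Relative to it, *Gnaq* was 0.54 higher (0.69 ± 0.12 against 0.15 ± 0.22, SD, n = 5) and *Plcb4* 0.25 higher (1.56 ± 0.04 against 1.31 ± 0.10), each with a 2-sided exact permutation p of 0.00794, the smallest that 5 against 5 mice allow. *Inpp5a* differed from the Purkinje cell genes by 0.01 (exact p = 0.69), *Homer3* by -0.12 (0.103), *Itpka* by -0.11 (0.349), *Itpr1* by 0.12 (0.206) and *Car8* by 0.16 (0.103). These 7 tests were not adjusted. By this measure *Gnaq* and *Plcb4* changed less than the mean of the 12, a list chosen with earlier results of these data known. Since that mean fell, a gene that changed little comes out higher here by construction. *Gnaq* is also expressed outside Purkinje cells, so its change within them is not shown by this measure. For the other 5 no difference from the mean of the 12 was found at this sample size. *Gnaq* also followed the GC slope closely, and *Plcb4* fell more at 12 months with the GC trend removed. The values compared here were not corrected for the slope, and its part in both differences was not tested. At 2 months the values ran from -0.10 to 0.06, and the lowest exact p was 0.0873 (*Plcb4*).

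Between mice of 1 group the 7 genes did not move as 1 block. Over the 20 libraries, with group means removed and libraries permuted within groups, 7 of 28 relations among the 7 genes and the Purkinje cell mean had an adjusted p of at most 0.05 by Pearson's r. By Spearman's rho, 1 of these 7, *Car8* with *Itpka*, passed once adjusted over the 28, and the other 6 had adjusted p between 0.0538 and 0.294. *Gnaq* rose with *Car8* (r = 0.75, permutation p = 0.00153, adjusted p = 0.0143; rho = 0.61, p = 0.014, adjusted p = 0.0784; r = 0.59 without the 2 farthest libraries). *Itpka* went against *Car8* (r = -0.81, permutation p = 0.00028, adjusted p = 0.00784; rho = -0.80, p = 0.00047, adjusted p = 0.0132; r = -0.77 without the 2) and against *Gnaq* (r = -0.78, permutation p = 0.00098, adjusted p = 0.0137; rho = -0.71, p = 0.00384, adjusted p = 0.0538; r = -0.71 without the 2). These 3 genes are those that followed the GC slope most closely, and the part of the slope in the relations was not tested. *Plcb4* rose with *Itpr1* (r = 0.64, permutation p = 0.0106, adjusted p = 0.0424; rho = 0.62, p = 0.0136, adjusted p = 0.0784; r = 0.46 without the 2). *Homer3* rose with *Itpka* (r = 0.63, permutation p = 0.0103, adjusted p = 0.0424; rho = 0.58, p = 0.0174, adjusted p = 0.0812; r = 0.47 without the 2) and with the Purkinje cell mean (r = 0.66, permutation p = 0.01, adjusted p = 0.0424; rho = 0.44, p = 0.0976, adjusted p = 0.294; r = 0.41 without the 2), the last resting in part on those libraries. *Gnaq* went against *Homer3* (r = -0.67, permutation p = 0.00586, adjusted p = 0.041; rho = -0.63, p = 0.00908, adjusted p = 0.0784; r = -0.60 without the 2). *Inpp5a* had no relation that passed, the largest being with the Purkinje cell mean (r = 0.42, permutation p = 0.0807, adjusted p = 0.245; rho = 0.41, p = 0.0911, adjusted p = 0.294).

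**Figure D5:**
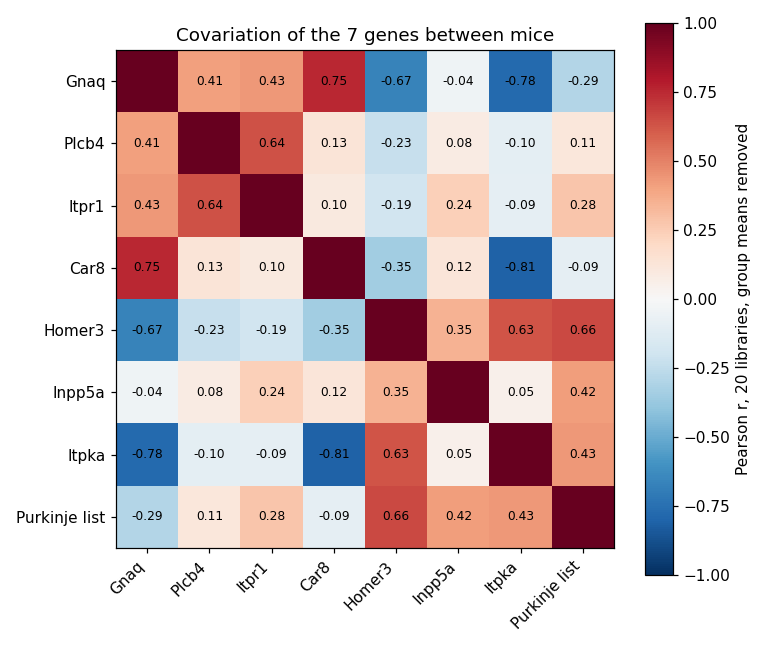
Pearson r between the 7 genes and the mean of 12 Purkinje cell genes (both axes) over 20 libraries after group means were removed. *Itpka* is negative with *Car8* (-0.81) and *Gnaq* (-0.78), and *Inpp5a* lies between -0.04 and 0.42 with all others.

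The genes most like the mean of the 7 across libraries, by Pearson r of group-centred log2 CPM over 20 libraries, were *Cntnap5b* (0.86), *Dgki* (0.84), *D430041D05Rik* (0.81), *Rapgef6* (0.81) and *Ralgapa1* (0.80). The gene most like each single one was *Akap11* for *Gnaq* (0.96), *Lgalsl* for *Car8* (0.96), *Rpl13* for *Itpka* (0.93), *D430041D05Rik* for *Itpr1* (0.91), *Rrp15* for *Homer3* (0.86), *Arhgap20* for *Plcb4* (0.84) and *A930005H10Rik* for *Inpp5a* (0.83). Each is the highest of the genes tested, taken in libraries that share depth and base composition, and is given as a description.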

How the data were processed

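Cerebellar polyA RNA of 20 mice was measured. The authors used STAR (version 2.4.5b in the submitters' processing notes) on GRCm38 and Rsubread for counting, and deposited raw whole-number counts for 29200 Ensembl IDs. GENCODE M21 named 29150 IDs. Counts were scaled by TMM in edgeR 4.0.16 (R 4.3.3), with library sizes taken from the 12153 genes whose counts averaged 50 or more, and tested by the quasi-likelihood method with 1 term for each of 4 groups. Passing meant an adjusted p (Benjamini-Hochberg) up to 0.05, and a DEG had in addition a log2 fold change of at least 0.5. Log2 CPM used a prior count of 2. Normalized counts were scaled to the mean effective library size, and RPKM divided them by union exon length. Library totals were 11385380 to 27636687, and the common biological coefficient of variation was 0.113, a spread between mice that comes on top of counting error. No 2 replicates agreed within counting noise (chi-square per degree of freedom at least 4.43). The 7 members in all contrasts, up to 4 passing genes of each pathway list, some fixed pathway genes and up to 3 passing genes of each marker list were named, and *Marcks*, outside this rule, was named after its values were seen. Members and lists were chosen with earlier results of these data known. Alternatives were DESeq2 1.42.0, surrogate variables (3, sva 3.50.0), other filters and size factors, the replicate number as a block and each library left out. Removing the GC trend, leaving out both first WT/WT libraries and the comparison with Purkinje cell genes were added after seeing the data. Fits were also run on simulated counts that held no GC trend, so these runs do not speak to that trend, and their outcomes are not given here. Some named genes of the lists are left out of the text.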

Additional observations from a re-analysis of the deposited data

Results flagged for a closer look

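The genotype difference of *Homer3* changed with age, with an interaction of -0.48 on the log2 scale (edgeR adjusted p = 0.00705), and so did that of *Inpp5a*, at -0.33 (adjusted p = 0.00192). In 28 groups of 5 mice (7 genes in 4 groups), 2 held a mouse far from the others by Dixon's test at the critical value of 0.71, where chance flags about 1 in 20 groups. *Itpr1* had 51090 normalized counts in WT/WT mouse 1 of 2 months against 42880 to 44024 in the other 4, and *Car8* had 21304 in WT/WT mouse 1 of 12 months against 16394 to 17208. In the fits without both of these mice, 5 of the 7 genes passed at 12 months, and the share of all genes in that fit is not given here.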

How the results depend on the processing

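Of 1078 log2 fold changes of the 7 genes under alternatives, 1020 kept direction and side of the threshold. The reversed ones were values near 0: *Gnaq* at 2 months with surrogate variables (0.010 in DESeq2, 0.0076 in edgeR), *Homer3* at 2 months with a library left out (-0.073 to 0.0054, above 0 without WT/WT mouse 4), *Inpp5a* with age in WT/WT mice with the GC trend removed (-0.0234), *Itpka* there with surrogate variables (-0.0243 in DESeq2, -0.0202 in edgeR), and *Gnaq* with age in 304Q/304Q mice with a library left out (-0.0275 to 0.104). The cause was not tested. With a log2 fold change of at least 0.5 required, 2 of the 7 and 4 of 85 other pathway genes passed at 12 months, 0 and 1 with age in 304Q/304Q mice, 4 other genes with age in WT/WT mice, and 0 and 2 in the interaction, by construction fewer. With surrogate variables, 1 other gene passed at 2 months in either tool, 6 with age in WT/WT mice in edgeR and 29 with age in 304Q/304Q mice in either tool. Shares of all genes passing are not given for the alternatives in this section, so these counts are not read as a result about the pathway. Fitting only the groups compared gave 4 other genes with age in WT/WT mice, and leaving out both first WT/WT libraries gave 1 of the 7 there. Leaving out each library gave 0 to 3 of the 7 and 3 to 24 other genes with age in WT/WT mice, lowest without WT/WT mouse 1 of 2 months and WT/WT mouse 3 of 12 months and highest without WT/WT mouse 1 of 12 months, 2 to 5 of the 7 with age in 304Q/304Q mice (2 without 304Q/304Q mouse 5 of 2 months, 3 without 304Q/304Q mouse 1, 2 or 3 of either age), and 4 to 6 of the 7 and 18 to 26 other genes at 12 months. Same-numbered mice correlated between -0.323 and 0.551 and were not taken as pairs; with the replicate block, 5 of the 7 passed at 12 months, 5 with age in 304Q/304Q mice and 2 in the interaction. *Itpka*, with the fewest counts, had the widest intervals.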
